A study of Mus musculus with 32 samples.

Results

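Interferons are secreted proteins with which cells signal the presence of viruses and other microbes. Type I interferons bind the receptor IFNAR, whose kinases JAK1 and TYK2 activate STAT2, which joins IRF9 in a complex that binds interferon-stimulated response elements (ISREs) before the interferon-stimulated genes. Among those genes are antiviral effectors and the parts of major histocompatibility complex (MHC) class I, which is made of a heavy chain and beta-2 microglobulin and shows peptides from inside the cell to T cells. In brain tissue without infection, microglia and the cells of vessels are known to carry some basal activity of this pathway.

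The 9 genes described here were taken by name as rows of a table of 23958 genes: the signalling genes Stat2, Irf9 and Irf7, the effectors Ifit1, Ifit3, Isg15 and Bst2, and the MHC class I genes B2m and H2-D1. Each was followed in the frontal cortex of 32 mice that had received gut microbiota from humans (12 mice), from squirrel monkeys, Saimiri boliviensis (8 mice), or from macaques, Macaca mulatta (12 mice). The tissue was the infralimbic and prelimbic cortex. All mice had an inoculation with a primate microbiota, there was no group without one, and the labels used here give no strain, sex, age or number of donors. RNA was read by TagSeq, which counts tags near the 3′ end of transcripts.

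Each mouse gave 1035036 to 2089308 counts (human group 1204598 to 2089308, squirrel monkey group 1193113 to 1588716, macaque group 1035036 to 1673882). The labels name 6 batches: A and B hold 4 and 8 mice of the human group, C and D hold 4 and 4 of the squirrel monkey group, and E and F hold 5 and 7 of the macaque group. No batch holds mice of more than 1 group, so donor species and batch cannot be told apart. The plate column of the library names also follows the groups: human mice are in columns 1 and 2, squirrel monkey mice in 3, and macaque mice in 4 and 5, with batch F in both of these. Nothing in the labels says how mice within a batch were housed, so the p-values measure the spread between these mice. The tissue was bulk cortex, in which fewer cells of a type and less RNA per cell cannot be told apart. All 7 neuronal markers were measured in each group, at a summed level of 4640 to 6580 CPM (a count divided by its library's scaled total, on 1 scale for all mice) over the 32 mice.

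The promoters are shown because the pathway is known to act through the ISRE, an element in the promoters of its target genes. RefSeq (build GRCm38.p6) gave a promoter for all 9 genes, searched from 250 bases before to 50 bases after the start. An ISRE-like match, written GAAANNGAAA and searched on both strands, was found in 6 of 9 genes: Isg15 (3 overlapping matches), Ifit1, Ifit3 and Bst2 (2 each), and Stat2 and B2m (1 each). Of all 32851 promoters of the same length, 3.44% held such a match. Irf7, H2-D1 and both listed promoters of Irf9 held none, which says only that these letters are not in these windows. The match of the gamma-activated type, TTCNNNGAA, was found in 1 of 9 genes, Bst2, where it overlaps an ISRE-like match, and in 8.3% of all promoters. The 250 bases before the start are printed 5′ to 3′ on the strand of the gene for 4 genes with a match and for H2-D1, with ISRE-like matches in capitals. They lie at chr4:156200819-156201068 (minus strand) for Isg15, chr19:34640639-34640888 (plus) for Ifit1, chr19:34583279-34583528 (plus) for Ifit3, chr2:122147437-122147686 (plus) for B2m and chr17:35262844-35263093 (plus) for H2-D1.
Isg15: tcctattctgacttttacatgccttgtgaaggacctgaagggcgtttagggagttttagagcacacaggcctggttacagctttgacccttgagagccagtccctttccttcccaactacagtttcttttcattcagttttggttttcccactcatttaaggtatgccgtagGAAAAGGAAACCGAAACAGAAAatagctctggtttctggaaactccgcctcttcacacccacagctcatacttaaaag
Ifit1: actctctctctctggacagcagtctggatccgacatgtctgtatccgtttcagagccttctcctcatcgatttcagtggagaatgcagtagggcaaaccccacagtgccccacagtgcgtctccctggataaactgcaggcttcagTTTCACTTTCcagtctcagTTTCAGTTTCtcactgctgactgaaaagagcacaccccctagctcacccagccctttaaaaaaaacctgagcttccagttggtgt
Ifit3: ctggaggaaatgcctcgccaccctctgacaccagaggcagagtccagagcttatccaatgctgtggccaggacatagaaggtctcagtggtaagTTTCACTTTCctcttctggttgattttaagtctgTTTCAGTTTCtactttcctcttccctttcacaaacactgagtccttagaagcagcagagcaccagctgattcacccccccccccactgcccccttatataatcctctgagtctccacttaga
B2m: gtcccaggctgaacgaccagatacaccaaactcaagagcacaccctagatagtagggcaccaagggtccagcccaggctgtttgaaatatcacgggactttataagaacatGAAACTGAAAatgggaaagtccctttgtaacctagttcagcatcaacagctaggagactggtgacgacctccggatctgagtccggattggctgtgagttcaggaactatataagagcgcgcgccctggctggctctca
H2-D1: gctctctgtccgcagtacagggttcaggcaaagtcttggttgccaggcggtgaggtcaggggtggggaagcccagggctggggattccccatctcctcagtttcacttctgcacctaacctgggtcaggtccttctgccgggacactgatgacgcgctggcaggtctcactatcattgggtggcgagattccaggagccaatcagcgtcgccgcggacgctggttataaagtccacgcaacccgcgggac
In Isg15 the 3 matches run as 1 block from 78 to 57 bases before the start. Ifit1 and Ifit3, which lie near each other on chromosome 19, share both of their matches letter for letter (TTTCACTTTC, then TTTCAGTTTC, the element read on the opposite strand). In Ifit1 these begin 104 and 85 bases before the start, and in Ifit3 156 and 122 bases before it. The single match in B2m lies 139 to 130 bases before its start.

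No difference between donor groups in these 9 genes was larger than the tests require against the spread between mice. After a filter on low counts, 6 of 9 could be tested across all genes (Stat2, Irf9, Ifit3, Isg15, B2m and H2-D1), while Irf7, Ifit1 and Bst2 had too few counts. With edgeR's quasi-likelihood test and Benjamini-Hochberg adjustment over 12651 genes, 0 of 6 passed an adjusted p of 0.05 in human against macaque, where 8.01% of all genes passed. The count was also 0 of 6 in squirrel monkey against macaque (0.640% of all genes) and in human against squirrel monkey (0.134%), as well as in the test for any difference among the 3 groups (6.15%). DESeq2 also called 0 members in each of these 4 tests. At an unadjusted p below 0.05, edgeR called 1 of 6 in human against macaque, Ifit3, against 23.1% of all genes, and 0 of 6 in the others (13.2%, 10% and 21% of all genes). The 3 comparisons share groups and are not independent. In all of them, and for all 9 genes, the ranges of the groups overlapped. The share of all genes whose ranges overlap was not counted.

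**Figure D1:**
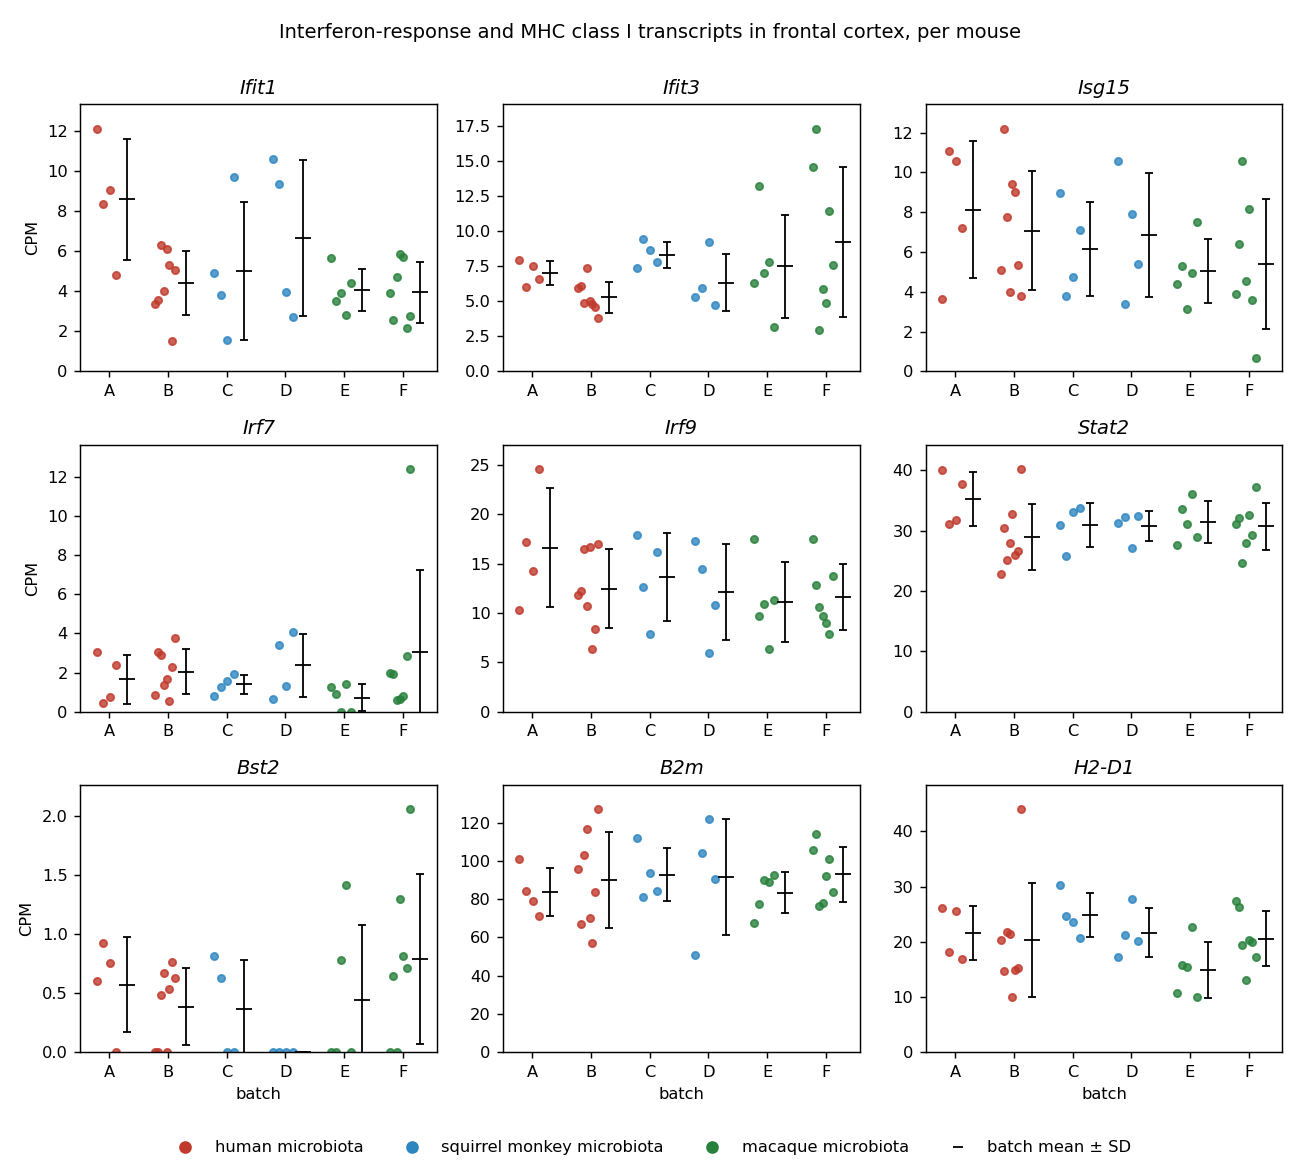
Level of each of the 9 genes in every mouse, in CPM on TMM-scaled totals, by batch, with colours for the donor group and bars for the batch mean ± SD. The groups overlap in every panel, batch A is highest for Ifit1 at a mean of 8.59 CPM, and 1 macaque mouse stands at 12.4 CPM of Irf7.

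STAT2 is the subunit of the activated complex that switches its target genes on. Stat2 ran from 22.8 to 40.2 CPM (median 30.8) in the human group, from 25.8 to 33.7 (median 31.8) in the squirrel monkey group and from 24.7 to 37.2 (median 31.1) in the macaque group. The group means were 31.1 ± 5.80, 30.8 ± 2.86 and 31 ± 3.59 CPM (SD, n = 12, 8 and 12). The human group was the widest and the squirrel monkey group the narrowest, and the means nearly coincide. The log2 fold change of human against macaque was 0.01 ± 0.09 (SE) with a 95% interval of -0.17 to 0.19, or 0.888-fold to 1.144-fold. Stat2 had the narrowest interval of the 6 tested members in this comparison. Its coefficient of variation was no larger than counting alone gives in the macaque group (11.6%, against 15.2% from counting) and in the squirrel monkey group (9.27% against 15.2%), and it was larger in the human group (18.7% against 13.8%).

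Between the human batches, Stat2 had the lowest p of the 6 tested members. Batch A held mice at 40.1, 31.1, 31.7 and 37.8 CPM (mean 35.2 ± 4.46, n = 4), and batch B ran from 22.8 to 40.2 (mean 29 ± 5.47, n = 8). The highest mouse of batch B is as high as the highest of batch A, and the batches overlap. The log2 difference was 0.27 ± 0.13 at an unadjusted p of 0.0417 and an adjusted p of 0.415 (edgeR), in a test where 11.6% of all genes had an unadjusted p below 0.05 and 0.0237% passed the adjusted threshold. No member passed between batches of 1 donor group with edgeR or DESeq2: 0 of 6 between A and B, between C and D (0% of all genes) and between E and F (0%). At an unadjusted p below 0.05 the counts were 0 of 6 between C and D (6.98% of all genes) and 0 of 6 between E and F (3.15%).

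IRF9 is the part of the complex that reads the ISRE. Irf9 ran from 6.37 to 24.6 CPM (median 13.2) in the human group, from 5.95 to 17.9 (median 13.5) in the squirrel monkey group and from 6.37 to 17.5 (median 10.7) in the macaque group. The means were 13.8 ± 4.91, 12.9 ± 4.41 and 11.4 ± 3.48 CPM (SD, n = 12, 8 and 12). The lowest mice of all groups sit at nearly the same level, and the group that reaches highest is the human one, through a mouse of batch A. The log2 fold change of human against macaque was 0.29 ± 0.19 (95% interval -0.10 to 0.67, adjusted p = 0.38, edgeR), and that of squirrel monkey against macaque was 0.17 ± 0.22 (adjusted p = 0.798). The first was 0.14 without batch A, 0.54 without batch B and 0.18 without human replicate 4. The second ran from 0.09 to 0.28 without single mice and was 0.09 without batch C and 0.27 without batch D. Irf9 has an exon overlap on the same strand with Rnf31 in the GENCODE M21 annotation, so some of its tags could belong to that gene.

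IRF7 is a transcription factor that is itself induced by interferon and amplifies the response. Irf7 had 95 counts over all mice and 2 mice at 0, both in batch E. The human group ran from 0.464 to 3.77 CPM (median 1.98), the squirrel monkey group from 0.665 to 4.05 (median 1.45) and the macaque group from 0 to 12.4 (median 1.07). The highest macaque value came from 1 mouse of batch F with 18 counts, while the other macaque mice had 0 to 4. The means were 1.92 ± 1.14, 1.88 ± 1.22 and 2.06 ± 3.36 CPM, and the macaque mean was 1.12 CPM without that mouse. A permutation test gave p = 0.969 for human against macaque, and exact permutation tests gave 0.965 for squirrel monkey against macaque and 0.939 for human against squirrel monkey (two-sided; adjusted p = 0.983 each over 9 tests). That mouse did not stand apart the same way in the effectors: it had 1 count of Isg15, the lowest of all mice, and 3 counts of Bst2, the highest. Exons of Irf7 overlap Phrf1 on the opposite strand, and the use of strand in counting is not given in the sources used here, so its level is uncertain.

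The IFIT proteins bind foreign RNA and block its translation. Ifit3 ran from 3.77 to 7.90 CPM (median 5.98) in the human group, from 4.72 to 9.44 (median 7.55) in the squirrel monkey group and from 2.94 to 17.3 (median 7.28) in the macaque group. The macaque group was the widest, with its lowest and its highest mouse both in batch F, and both lie outside the range of the human group. The means were 5.86 ± 1.31, 7.31 ± 1.81 and 8.50 ± 4.61 CPM (SD, n = 12, 8 and 12). The log2 fold change of human against macaque was -0.50 ± 0.22 (95% interval -0.96 to -0.05, unadjusted p = 0.0305, adjusted p = 0.164, edgeR), with 3 of the 12 human mice exceeding the macaque median. It was -0.26 (adjusted p = 0.681) without batch B and -0.31 (adjusted p = 0.568) without batch F. Against squirrel monkey the human group gave -0.33 ± 0.26 (adjusted p = 0.73). Both batches of the human group had a lower mean (7.02 and 5.29 CPM) than both of the macaque group (7.48 and 9.23), an order that 49.0% of all genes showed in 1 direction or the other. Of the 6 tested members 3 showed it: Ifit3 in this direction, Isg15 and Irf9 in the opposite one. In squirrel monkey against macaque 3 of 6 had both batch means of 1 group beyond both of the other (43.3% of all genes), and in human against squirrel monkey 2 of 6 (34.2%).

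The spread of Ifit3 differed between groups in size. Its coefficient of variation was 22.3% in the human and 24.7% in the squirrel monkey group, both below what counting alone gives at this depth (32% and 31%). In the macaque group it was 54.3%, above the 29.4% from counting. In batch F, 3 mice had 14.6, 17.3 and 11.4 CPM and the other 4 had 2.94 to 7.57. The difference in spread was not tested.

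Ifit1, its neighbour, had its lowest mean in the macaque group, where Ifit3 had its highest. It ran from 1.53 to 12.1 CPM (median 5.17) in the human group, from 1.58 to 10.6 (median 4.43) in the squirrel monkey group and from 2.14 to 5.84 (median 3.89) in the macaque group. High mice were found in batch A (12.1, 8.36 and 9.05 CPM, with the fourth mouse at 4.79), in batch C (1 mouse at 9.71) and in batch D (10.6 and 9.36), and none of the macaque mice was above 5.84. The means were 5.80 ± 2.89, 5.83 ± 3.53 and 3.99 ± 1.29 CPM. The human group exceeded the macaque group by 1.81 CPM (permutation p = 0.0571, two-sided, adjusted p = 0.276 over 9 tests) and the squirrel monkey group exceeded it by 1.84 CPM (exact permutation p = 0.115, adjusted p = 0.276). Neither passed, and human and squirrel monkey mice had nearly the same mean (exact permutation p = 0.983). Ifit2 and Ifit3b, of the same family, were lower in human against macaque, as Ifit3 was. Their log2 fold changes were -0.42 ± 0.20 (unadjusted p = 0.0459, adjusted p = 0.207, edgeR) and -0.70 ± 0.26 (unadjusted p = 0.0117, adjusted p = 0.0941). Neither gene passed, and squirrel monkey against macaque gave 0.03 ± 0.22 and -0.29 ± 0.29. Both genes were chosen for mention after their values were seen.

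The Ifit1 means of the human batches lay apart, though their difference did not pass the test. Batch A had a mean of 8.59 ± 3.02 CPM (n = 4) and batch B 4.40 ± 1.60 (n = 8), the latter close to batch E (4.05 ± 1.05) and batch F (3.95 ± 1.52). With no filter on low counts, edgeR gave a log2 difference of 0.91 ± 0.34 between A and B, with an unadjusted p of 0.0096 and an adjusted p of 0.462. Without batch B, Ifit1 entered the fit only through the groups where it is high, since no macaque mouse reached the level the filter asks for, and the value is given as a description: human (batch A alone) against macaque was 1.07 ± 0.32 with an adjusted p of 0.0351 (edgeR). With all mice and no filter it was 0.55 ± 0.27 (adjusted p = 0.327). Without batch A it stayed below the filter.

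ISG15 is a ubiquitin-like protein that is attached to other proteins in the interferon response. Isg15 ran from 3.64 to 12.2 CPM (median 7.47) in the human group, from 3.40 to 10.6 (median 6.26) in the squirrel monkey group and from 0.688 to 10.6 (median 4.75) in the macaque group. Of the human mice, 9 of 12 lay above the macaque median, but each group has mice near 4 and near 10 CPM. The means were 7.43 ± 3.05, 6.50 ± 2.59 and 5.26 ± 2.61 CPM (SD, n = 12, 8 and 12). Human against macaque gave a log2 fold change of 0.50 ± 0.25 (95% interval -0.01 to 1.01, unadjusted p = 0.053, adjusted p = 0.225, edgeR), of the same size as that of Ifit3 and opposite in sign. The order of the batch means placed both human batches (8.14 and 7.07 CPM) above C and D (6.15 and 6.84) and those above E and F (5.05 and 5.41). The range within each batch is wider than the steps of that order. The last 300 bases of Isg15 transcripts have a near-identical copy in 1 other gene, so some of its tags could belong to that gene.

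BST2, or tetherin, holds budding virus at the cell surface. Bst2 had 22 counts in all, and 15 of 32 mice had 0. It was seen in 8 of 12 human mice, 2 of 8 squirrel monkey mice and 7 of 12 macaque mice, with at most 0.929, 0.815 and 2.06 CPM. All 4 mice of batch D had 0 counts, which allows a pooled level of up to 0.528 CPM (3 counts over the batch, a one-sided bound; the upper end of the exact Poisson 95% interval is 0.65 CPM). The pooled level was 0.447 CPM in the human group (exact Poisson 95% interval 0.204 to 0.848), 0.176 in the squirrel monkey group (0.0213 to 0.634) and 0.638 in the macaque group (0.318 to 1.14), and these intervals cover counting error only. The intervals overlap, and permutation tests gave p = 0.383 for human against macaque (adjusted p = 0.689), and exact ones p = 0.0888 for squirrel monkey against macaque and 0.123 for human against squirrel monkey (adjusted p = 0.276 each). No difference was detected, and 1 count stands for 0.652 CPM in a mouse of median depth. Pooled levels and their bounds are over unscaled library totals, while the levels of single mice are over scaled ones.

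B2m encodes beta-2 microglobulin, the light chain that every MHC class I heavy chain needs to reach the cell surface. B2m ran from 56.8 to 127 CPM (median 84.0) in the human group, from 50.6 to 122 (median 92.1) in the squirrel monkey group and from 67.7 to 114 (median 89.7) in the macaque group. The group medians are close, and each group spans most of the range of all mice. The means were 88.0, 92.2 and 89.0 CPM, with coefficients of variation of 24.1%, 23.7% and 15%, where counting alone gives 8.28%, 8.80% and 8.95%. Human against macaque gave a log2 fold change of -0.02 ± 0.12 (95% interval -0.25 to 0.22) and squirrel monkey against macaque 0.05 ± 0.13 (-0.22 to 0.31). B2m thus varied between mice by more than counting error, within the groups rather than between them.

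H2-D1 encodes an MHC class I heavy chain. It ran from 9.99 to 44.0 CPM (median 19.2) in the human group, from 17.3 to 30.2 (median 22.4) in the squirrel monkey group and from 10 to 27.3 (median 18.3) in the macaque group. The human group holds both the lowest and the highest mouse, and the highest, in batch B with 70 counts, stands well above the next of its group (26.1 CPM). The log2 fold change of squirrel monkey against macaque was 0.36 ± 0.20 (95% interval -0.04 to 0.76, unadjusted p = 0.0771, adjusted p = 0.446, edgeR), with 7 of 8 squirrel monkey mice above the macaque median, and was 0.19 without batch E and 0.65 without batch F. That of human against macaque was 0.19 ± 0.18 (adjusted p = 0.566), and 0.04 (adjusted p = 0.919) without the mouse at 44.0 CPM, 0.02 without batch E and 0.47 without batch F. Between the macaque batches, E had a mean of 14.9 CPM and F 20.5, a log2 difference of -0.46 ± 0.27 (adjusted p = 1). The last 300 bases of H2-D1 transcripts have near-identical copies in 4 other genes, H2-K1 among them, and tags could have been split between them in counting.

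**Figure D2:**
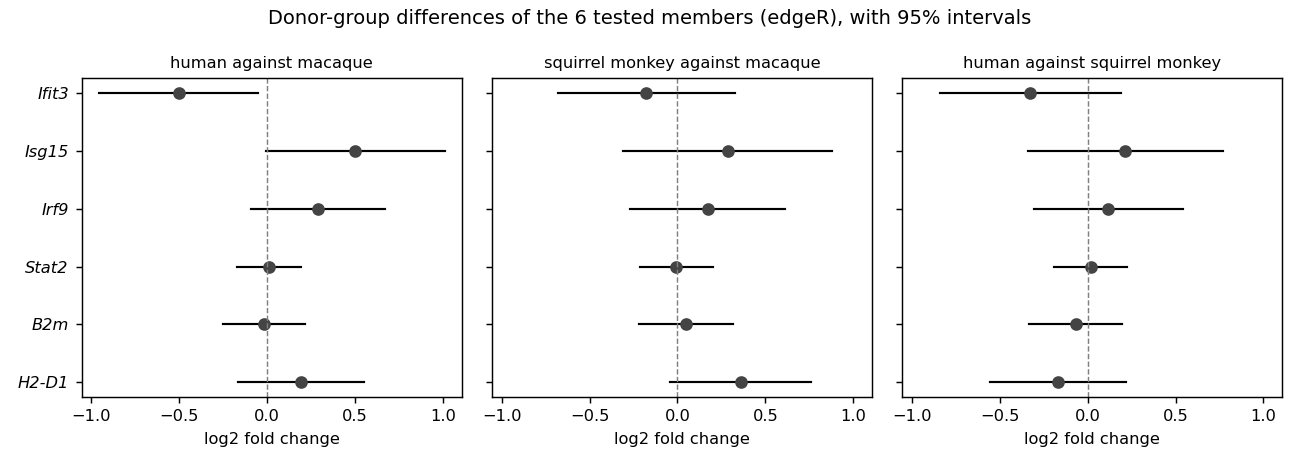
Log2 fold change of the 6 tested genes in each comparison of donor groups, with 95% intervals from edgeR; the dashed line marks no difference. The interval of Ifit3 in human against macaque (-0.96 to -0.05) is the one that leaves out 0, before adjustment, and Stat2 and B2m have the narrowest intervals.

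Genes that answer to 1 signal may rise and fall together from mouse to mouse, and this was asked within batches, where no donor difference enters. After the batch means were removed from log2 CPM, 1 of 15 pairs of the 6 tested genes correlated over the 32 mice: B2m and H2-D1, with Pearson r = 0.695 (permutation p = 3e-05, adjusted p = 0.00045 over 15 pairs) and Spearman rho = 0.744 (p = 1e-05, the smallest the shuffles can give; adjusted p = 0.00015). Without the 2 mice farthest from the median of B2m, r was 0.76. The mouse with the highest H2-D1 level, human replicate 12 of batch B, was not among these 2 and stayed in. In batch B, r was 0.81 (n = 8, exact permutation p = 0.00873) and in batch F it was 0.828 (n = 7, exact permutation p = 0.0177), each with an adjusted p of 0.133 over 30 within-batch pairs. The other batches hold 5 mice or fewer and were not read alone. Batch F also held a pair with a higher r, Ifit3 and B2m at 0.894 (n = 7, exact permutation p = 0.0117, adjusted p = 0.133), which had -0.011 in batch B. Light and heavy chain transcripts thus varied together among mice that had the same donor species and batch.

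No other pair passed, those of interferon-stimulated genes included. Ifit3 and Isg15 had r = -0.251 (permutation p = 0.307, adjusted p = 0.576) and rho = -0.304 (permutation p = 0.127, adjusted p = 0.418). Stat2 and Irf9, which act in 1 complex, had r = 0.169 (permutation p = 0.389, adjusted p = 0.616) and rho = 0.118 (permutation p = 0.55, adjusted p = 0.773). Of the 15 pairs, 7 had a negative r, and the mean r was 0.038. The lowest was that of Isg15 and B2m, at r = -0.354 (permutation p = 0.059, adjusted p = 0.274) and rho = -0.38 (permutation p = 0.0543, adjusted p = 0.272). In batch B that pair had r = -0.838 (exact permutation p = 0.0144, adjusted p = 0.133) and in batch F -0.011. At about 10 counts of Ifit3 and of Isg15 per mouse, counting error takes a large part of their spread, which limits how high such a correlation could come out.

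**Figure D3:**
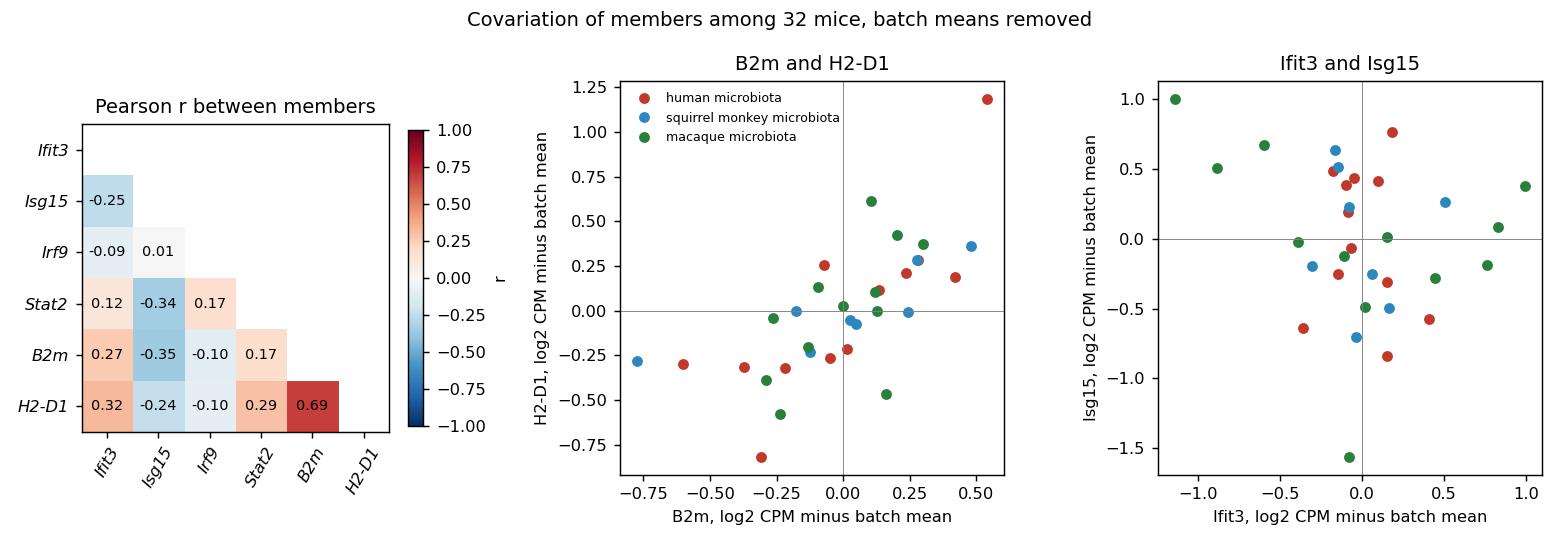
Pearson r of the 15 pairs of tested genes over 32 mice after removal of batch means (left), and the mice themselves for B2m with H2-D1 (middle) and Ifit3 with Isg15 (right), in log2 CPM minus the batch mean. B2m and H2-D1 rise together (r = 0.695) in mice of all 3 groups, while for Ifit3 and Isg15 r is -0.251.

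The genes most like a member over the 32 mice were listed for the 3 members with a mean of at least 20 CPM, by Pearson r with batch means removed, as a description without a test. For B2m they were Cd68 (r = 0.811), a lysosomal protein of microglia and macrophages, Id3 (0.781), an inhibitor of transcription factors, and Tgm2 (0.781), a transglutaminase. For H2-D1 they were Prdx6 (0.781), an antioxidant enzyme, Myl12a (0.772), a myosin light chain, and Aldh1l1 (0.764), an enzyme used as an astrocyte marker. H2-D1 stood 59th among all genes for B2m, and B2m stood 40th for H2-D1. For Stat2 they were Wscd1 (0.797), Ccp110 (0.735), a protein of the centriole, and Arhgap23 (0.732), while Irf9 stood at place 3559. All these genes come from the same libraries.

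Markers of several non-neuronal cell types moved with B2m and H2-D1. With batch means removed, the summed level of 10 endothelial markers correlated with B2m at r = 0.811 and rho = 0.775 (permutation p = 1e-05 and 2e-05, adjusted p = 0.000107 and 0.000128 over 16 relations). For the 13 microglial markers r was 0.716 and rho 0.692 (permutation p = 0.00011 and 0.00013, adjusted p = 0.000251 and 0.000297). Astrocyte markers gave r = 0.73 and rho = 0.744, and meningeal markers 0.707 and 0.733 (permutation p = 4e-05 for each r, adjusted p = 0.000107), whereas neuronal markers gave -0.062 (permutation p = 0.729) and leukocyte markers -0.131 (permutation p = 0.516). For H2-D1, r was 0.728 with meningeal, 0.654 with astrocyte, 0.64 with endothelial, 0.612 with microglial and -0.26 with neuronal markers (permutation adjusted p = 0.000107, 0.000107, 0.000107, 0.00118 and 0.26), and rho was 0.755, 0.729, 0.678, 0.601 and -0.07. Oligodendrocyte markers gave r = 0.565 and rho = 0.394 with H2-D1 (permutation adjusted p = 0.00948 and 0.0604). This r fell to 0.292 without the 2 mice farthest from the median of that marker sum, and it was 0.865 in batch B and 0.536 in batch F. Here and below, the 2 farthest mice were set separately for each marker list. Red cell markers gave r = 0.327 and rho = 0.44 with H2-D1 (permutation adjusted p = 0.0447 and 0.0244; r = 0.321 without the 2 farthest mice, 0.046 in batch B and 0.465 in batch F). Without the 2 farthest mice the r of B2m was 0.693 with endothelial, 0.668 with microglial, 0.741 with astrocyte and 0.686 with meningeal markers. In batches B and F it was 0.923 and 0.897, 0.655 and 0.831, 0.89 and 0.883, and 0.963 and 0.816. For H2-D1, r without the 2 farthest mice was 0.653 with endothelial, 0.441 with microglial, 0.736 with astrocyte and 0.72 with meningeal markers. In batches B and F these were 0.668 and 0.948, 0.574 and 0.822, 0.903 and 0.667, and 0.811 and 0.766. With neuronal markers r of H2-D1 was -0.368 without the 2 farthest mice, -0.777 in batch B and -0.344 in batch F. That of B2m was -0.177, -0.502 and -0.113. With oligodendrocyte markers B2m gave r = 0.401 (permutation p = 0.0676, adjusted p = 0.0984). This was 0.207 without the 2 farthest mice, 0.56 in batch B and 0.554 in batch F. Red cell markers gave r = 0.311 with B2m (permutation p = 0.133), and leukocyte markers -0.008 with H2-D1 (permutation p = 0.97). These 16 relations were chosen after the correlations among the members were seen, and the part of these cell types in the relation of B2m and H2-D1 was not tested.

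The summed markers themselves overlapped between donor groups. Microglial markers summed to 528 to 811 CPM in the human, 528 to 733 in the squirrel monkey and 585 to 779 in the macaque group. In human against macaque 0 of 13 passed (8.01% of all genes), and 2 were lower at an unadjusted p below 0.05 (23.1%). In squirrel monkey against macaque 0 passed (0.640%) and 2 were lower at that level (13.2%). In human against squirrel monkey 0 passed (0.134%) and 3 were higher at that level (10%). The 9 leukocyte markers summed to 8.88 to 23.7, 12.6 to 25.3 and 5.71 to 24.1 CPM.

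The wider pathway was read from lists of genes written for this purpose. As background, 4.47% of all genes rose and 3.54% fell in human against macaque, 0.387% and 0.253% in squirrel monkey against macaque, and 0.0158% and 0.119% in human against squirrel monkey. At an unadjusted p below 0.05 the shares in either direction are 23.1%, 13.2% and 10%. Of 22 genes of interferon receptors and signalling, 20 had a row and 13 were tested in human against macaque: 0 rose and 0 fell, and 1 was higher and 1 lower at an unadjusted p below 0.05, with a median log2 fold change of 0.01. The lowest p-values were those of Jak1, the receptor kinase, at -0.14 ± 0.06 (adjusted p = 0.131, edgeR) and Ifnar2, a chain of the type I receptor, at 0.34 ± 0.16 (adjusted p = 0.188). Of 15 genes that sense foreign nucleic acid, 6 were tested, and 0 rose and 0 fell (median 0.05; 1 higher and 0 lower at an unadjusted p below 0.05). There Ddx58, the RNA sensor RIG-I, had 21.5 ± 5.74 CPM in the human, 18.4 ± 5.65 in the squirrel monkey and 16.2 ± 4.78 in the macaque group (log2 fold change of human against macaque 0.42 ± 0.16, adjusted p = 0.097), and the DNA sensor Cgas had a log2 fold change of 0.29 ± 0.21 (adjusted p = 0.435). Exons of Jak1 and of Cgas overlap other genes on the opposite strand, and Ifnar2 shares an exon and a 3′ end with Gm21970 on its own strand. In squirrel monkey against macaque and in human against squirrel monkey, 0 genes rose and 0 fell in each of the 5 lists with edgeR, and a list held at most 2 higher genes and 1 lower at an unadjusted p below 0.05.

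Of 61 interferon-stimulated genes, 60 had a row and 30 were tested in human against macaque (median log2 fold change 0.13). Of these 1 rose and 0 fell, and 5 were higher and 4 lower at an unadjusted p below 0.05, beside 23.1% of all genes. The gene that rose, Ifi27, encodes an interferon-induced protein of membranes. It ran from 54.4 to 87.5 CPM (median 64.6) in the human, from 52.7 to 77.6 (median 67.3) in the squirrel monkey and from 39.9 to 79.8 (median 48.9) in the macaque group. All 12 human mice lay above the macaque median, and the groups overlapped through the highest macaque mice. The log2 fold change was 0.34 ± 0.10 (adjusted p = 0.025, edgeR) in human and 0.37 ± 0.11 (adjusted p = 0.0958) in squirrel monkey against macaque. The batch means were 69.5 and 63.5 CPM in A and B, 70.6 and 62.9 in C and D, and 50.6 and 52.4 in E and F. The call was lost without any of the batches A, B, E or F (adjusted p = 0.127, 0.0546, 0.154 and 0.0667), with counts summed per batch (0.0622), and without human replicate 1 (0.0524) or macaque replicate 1 (0.051). The log2 fold change in these batch fits was 0.29, 0.42, 0.31 and 0.37, with counts summed per batch 0.34, and without single mice 0.29 to 0.41.

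Of 25 genes of MHC class I and of peptide processing, all had a row and 19 were tested in human against macaque, of which 1 rose and 0 fell (7 higher and 1 lower at an unadjusted p below 0.05, beside 23.1% of all genes), with a median of 0.19. The median of all genes was -0.001. H2-Q4, a class I heavy chain gene, ran from 3.81 to 20.9 CPM (median 11.9) in the human, from 2.55 to 8.59 (median 7.22) in the squirrel monkey and from 2.12 to 10 (median 5.67) in the macaque group. The mean was 17.1 ± 4.08 CPM in batch A and 10.3 ± 6.0 in batch B, and lay between 4.97 and 7.22 in the other 4 batches, so that both human batches were above the rest and A was the highest. This is a log2 fold change of 1.15 ± 0.26 (adjusted p = 0.00307, edgeR), with 9 of the 12 human mice exceeding the macaque median. The call was lost without batch A (0.89 ± 0.28, adjusted p = 0.0666) and without batch E (1.02 ± 0.31, adjusted p = 0.0675). Its 3′ end has near-identical stretches in 52 other genes, so the value is uncertain. H2-K1, the heavy chain gene whose 3′ end resembles that of H2-D1, had 27.0 ± 9.04, 23.4 ± 7.15 and 18.4 ± 7.11 CPM, and a log2 fold change of 0.56 ± 0.19 in human against macaque (adjusted p = 0.0504), chosen for mention after its value was seen. It passed under both other scalings of the libraries (adjusted p = 0.0491 with DESeq2 size factors and 0.0405 with library totals), and then 2 of 19 genes rose.

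Of 7 genes of MHC class II, which shows outside peptides to helper T cells, 3 were tested and 0 rose and 0 fell in human against macaque (median 0.07; 0 higher and 1 lower at an unadjusted p below 0.05). H2-DMa, which loads class II peptides, had a log2 fold change of -0.29 ± 0.11 (adjusted p = 0.101, edgeR) and Ciita, the class II transactivator, 0.16 ± 0.20 (adjusted p = 0.688). Exons of both overlap other genes on the opposite strand.

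**Figure D4:**
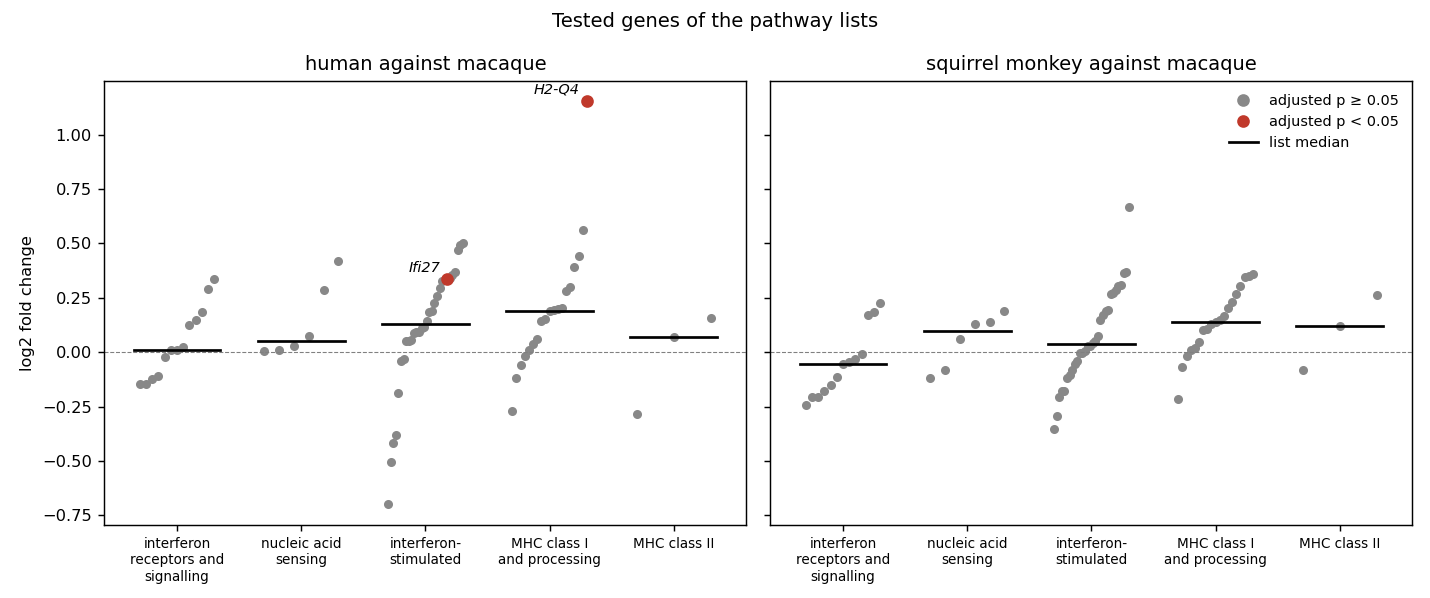
Log2 fold change of each tested gene of the 5 lists in human against macaque (left) and squirrel monkey against macaque (right), with the list median as a bar. Ifi27 (0.34) and H2-Q4 (1.15) are the genes past an adjusted p of 0.05, both in human against macaque.

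In the comparison in which Ifi27 and H2-Q4 rose, markers of other cell types also moved. Over all genes, 4.47% rose and 3.54% fell there, and 23.1% had an unadjusted p below 0.05 (13.2% in squirrel monkey against macaque). Of 8 oligodendrocyte markers 3 rose in human against macaque, Cldn11 (log2 fold change 1.5 ± 0.47, adjusted p = 0.0386, edgeR), Mal (1.2 ± 0.40, adjusted p = 0.045) and Mog, and all 8 were higher at an unadjusted p below 0.05 (median 1.26; 6 of 8 in squirrel monkey against macaque), with summed levels of 761 to 10300 CPM in the human, 876 to 5350 in the squirrel monkey and 651 to 3630 in the macaque group. The meningeal growth factor gene Igf2 rose by 0.99 ± 0.29 (adjusted p = 0.0273; 1.47 ± 0.31 in squirrel monkey against macaque, adjusted p = 0.0132) and the endothelial gene Ly6c1 by 0.40 ± 0.13 (adjusted p = 0.0425), each as 1 marker of its list (5 and 10 tested). Ly6c1 has near-identical copies of its 3′ end in Ly6a and Ly6c2, and Igf2 shares an exon and a 3′ end with Gm49394 on its own strand. Of the 7 neuronal markers Slc17a7 rose (0.26 ± 0.07, adjusted p = 0.0163) and Syt1 fell (-0.18 ± 0.06, adjusted p = 0.0418). Of the 4 tested red cell markers 0 passed, and 1 was higher at an unadjusted p below 0.05 (4 of 4 in squirrel monkey against macaque). The part of these cell types in the values of Ifi27 and H2-Q4 was not tested.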

How the data were processed

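Frontal cortex RNA of 32 mice was read by TagSeq, per the labels' protocols. The authors deposited raw whole-number counts per Ensembl gene (23958 rows), used here without change. The submitters' processing notes name build GRCm39. Aligner, counting tool, strand use and treatment of duplicate tags were not given in the sources used here. A further 3 count columns match no sample and were left out. Of the rows, 76 had no gene symbol (0.031% of counts).

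The 9 genes and all gene lists were chosen with earlier results of these data known. Counts were tested with edgeR 4.0.16 (R 4.3.3): filterByExpr on donor group (minimum count 10, minimum total 15; 12651 genes left), TMM factors (0.955 to 1.04), the quasi-likelihood test on all 32 mice with donor group as the term, Benjamini-Hochberg adjustment over all genes and a threshold of 0.05. A second fit on the 6 batches gave batch differences. Levels are CPM on TMM-scaled totals, with 1 count worth 0.652 CPM at the median depth of 1534710. The pooled levels of Bst2 and their bounds are on unscaled totals. Members below the filter were tested on mean CPM by permutation, exact where a group had fewer than 10 mice and with 100000 resamples otherwise. Correlations used log2 CPM (prior count 2) with batch means removed and shuffles within batches.

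Alternatives were DESeq2 1.42.0, other scalings, no filter, the 2 compared groups alone, counts summed per batch, and leaving out each mouse and each batch. Over 160 pairs of mice of 1 donor group, the chi-square per degree of freedom was 1.41 to 7.24 and 0 pairs were identical. The scripts were tested on simulated data. Named genes beyond the members are those of each list past the threshold in a donor comparison (up to 4 of smallest p, for marker lists up to 2), otherwise the 2 of smallest p in human against macaque, and the 3 most alike of each member with a mean of at least 20 CPM. H2-K1, Ifit2 and Ifit3b were named outside this rule, after their values were seen. Promoters came from RefSeq (GRCm38.p6). Overlaps and copies of the last 300 bases (at least 100 bases at 95% identity) came from GENCODE M21, an annotation of another build than the counts.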

Additional observations from a re-analysis of the deposited data

How the results depend on the processing

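No alternative made any of the 6 tested genes pass, and 750 of 789 recomputed fold changes of members kept their direction and their side of the threshold. The count of members called in human against macaque became 1, Ifit1, without batch B, where that gene entered only through the groups in which it is high. Several fold changes that did not pass moved by over 1.5 times without 1 batch, Ifit3 in human against macaque to -0.259 without B and -0.309 without F among them. The 39 reversed values were all of 0.083 or less in size. Without 1 batch or under library totals they were, for Stat2, -0.083 (human against macaque without A), -0.011 (without F), 0.012 (squirrel monkey against macaque, library totals), 0.003 (without D), 0.008 (without E) and -0.08 (human against squirrel monkey without A). For B2m they were 0.004 (human against macaque, library totals), 0.013 (without A), 0.068 (without F) and -0.012 (squirrel monkey against macaque without E). For Ifit3 in squirrel monkey against macaque they were 0.011 (without D) and 0.02 (without F), and for Irf9 in human against squirrel monkey -0.035 (without A). Leaving out single mice gave, for Stat2, -0.025 to 0.041 in human against macaque, -0.031 to 0.031 in squirrel monkey against macaque and -0.022 to 0.046 in human against squirrel monkey, and for B2m -0.077 to 0.029, -0.022 to 0.141 and -0.159 to 0.004. The cause was not tested.

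The number of all genes called moved more. Human against macaque (1013 genes) gave 539 with counts summed per batch, 472 without A, 390 without E, 337 without F, and 770 to 1146 without single mice; library totals changed its split from 565 higher and 448 lower to 673 and 321. Squirrel monkey against macaque (81) gave 221 summed, 152 with DESeq2, 178 with the 2 groups alone, 151 without B, 2 without C, 10 without E, 0 without F, and 28 to 131 without single mice. Human against squirrel monkey (17) gave 1 summed, 91 with DESeq2, 1 with no filter, 3 with the 2 groups alone, 3 without A, 58 without B, 63 without C, 1 without D, 2 without E, and 2 to 67 without single mice. In human against macaque, Xaf1 joined Ifi27 among the interferon-stimulated genes under library totals (2 of 30). The pair B2m and H2-D1 was the 1 pair past the threshold under each alternative, with r from 0.684 to 0.76.

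No paired analysis was possible because the labels give no replicate numbers that join mice across donor groups. Depth limits Irf7, Ifit1 and Bst2 most: a count of 3 stands for 1.95 CPM at median depth.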
